A study of Homo sapiens with 3 samples.

Results

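The genes described here encode the kinase LKB1 (gene STK11), the partners that activate it, STRADA and CAB39, and the AMPK subunits PRKAA1, PRKAA2, PRKAB1, PRKAB2, PRKAG1 and PRKAG2. All 9 were found by gene name among the 13247 protein-coding genes of the deposited table. STK11 was chosen by its 0 counts in every library and the others by pathway, so the 0 of STK11 is a description and not a finding. The data are RNA immunoprecipitation sequencing (RIP-seq) of 1 group with 3 replicate libraries of HHL5, an immortalised human liver line that the labels give as embryonic liver cells of wild-type genotype. The cells of every library were transfected with Flag-DDX49, a tagged RNA helicase of the DEAD-box family, and received OA/PA (most often oleic with palmitic acid) at a 2 to 1 ratio and 1.5 mM for 24 h. They were cross-linked with ultraviolet light before the pull-down, and the labels do not name the antibody. No input, mock pull-down or untreated sample was analysed here, so a count joins a transcript's abundance with its recovery, fewer cells that hold it cannot be told apart from less RNA per cell, and no conditions were compared.

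LKB1 is a serine/threonine kinase and tumour suppressor, inherited loss of which causes Peutz-Jeghers syndrome. It works in a complex with the pseudokinase STRAD and the scaffold MO25 (gene CAB39), and it phosphorylates the activation loop of AMPK and of a family of related kinases. AMPK is a heterotrimer of a catalytic alpha, a scaffolding beta and a nucleotide-binding gamma subunit that senses a fall in cellular energy. In liver it restrains the synthesis of fatty acids and cholesterol and favours fatty acid oxidation.

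STK11 (ENSG00000118046) had 0 counts in each of the 3 libraries, and so did the beta 2 subunit gene PRKAB2 (ENSG00000131791), as did 5.63% of all genes in the table. A count of 0 allows up to 3 counts, which is 1.48, 2.05 and 2.74 CPM in replicates 1, 2 and 3 (CPM, counts per 1000000 counts of a library), and 0.655 CPM over the 3 libraries together. STK11 lies on chromosome 19 at 1205778 to 1228431 (GRCh38, the same assembly as hg38) and PRKAB2 on chromosome 1 at 147155106 to 147172470. The promoters of these 0-count genes are shown with that of PRKAB1, the paralog of PRKAB2 that was counted in every library, to set where each transcript starts beside its counts. Each run is 300 bases from RefSeq (GRCh38.p14), written 5′ to 3′ on the gene's strand, with each CG dinucleotide in capitals. For STK11 and PRKAB2 it spans 250 bases before to 50 after the start of the gene. The PRKAB1 gene starts at 119667952, so its run lies mostly within the gene.
STK11, chr19:1205528-1205827, plus strand: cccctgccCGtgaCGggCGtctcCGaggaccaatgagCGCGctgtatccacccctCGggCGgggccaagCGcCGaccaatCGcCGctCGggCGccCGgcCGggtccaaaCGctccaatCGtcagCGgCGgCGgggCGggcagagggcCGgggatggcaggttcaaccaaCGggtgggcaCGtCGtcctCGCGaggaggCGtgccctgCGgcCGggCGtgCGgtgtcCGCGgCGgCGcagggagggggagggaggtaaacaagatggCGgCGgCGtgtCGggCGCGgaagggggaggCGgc
PRKAB2, chr1:147172421-147172720, minus strand: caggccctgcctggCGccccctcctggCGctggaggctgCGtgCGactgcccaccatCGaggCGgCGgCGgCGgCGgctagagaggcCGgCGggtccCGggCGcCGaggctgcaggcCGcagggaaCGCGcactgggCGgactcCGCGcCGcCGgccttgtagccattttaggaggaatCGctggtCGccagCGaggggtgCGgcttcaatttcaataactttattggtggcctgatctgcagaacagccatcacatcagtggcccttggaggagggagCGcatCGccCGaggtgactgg
PRKAB1, chr12:119667883-119668182, plus strand: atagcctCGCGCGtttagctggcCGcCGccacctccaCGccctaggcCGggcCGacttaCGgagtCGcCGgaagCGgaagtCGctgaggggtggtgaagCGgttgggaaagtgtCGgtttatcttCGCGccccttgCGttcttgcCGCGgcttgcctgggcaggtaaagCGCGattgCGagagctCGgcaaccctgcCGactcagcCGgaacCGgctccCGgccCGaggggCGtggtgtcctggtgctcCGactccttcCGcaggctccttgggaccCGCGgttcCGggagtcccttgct

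The STK11 promoter held 44 CG dinucleotides, a number reached by 5.41% of the 22199 promoters of protein-coding genes in the same reference. PRKAB2 held 30, reached by 28.9%, and PRKAB1 held 35, reached by 18.2%, while the median promoter held 21. CG is its own reverse complement, so these counts hold for both strands. The G and C content was 75.3% for STK11, 68.7% for PRKAB2 and 67.7% for PRKAB1, against a median of 62.3%. All 3 promoters lay above the median in both measures. That does not hold for all genes described here, as the PRKAG1 promoter had a G and C content of 61.7%. Whether promoter sequence goes with the counts was not tested. Promoters were found for 8 of the 9 genes, with STRADA the exception.

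Of the LKB1 complex, CAB39 was well represented and STRADA was almost absent. STRADA (ENSG00000266173), the pseudokinase that holds LKB1 in its active form, had 3, 1 and 0 counts, or 1.48, 0.684 and 0 CPM, with a mean of 0.722 ± 0.742 CPM (SD, n = 3 here and below). CAB39 (ENSG00000135932), the scaffold MO25 alpha, had 58, 49 and 55 counts, or 28.7, 33.5 and 50.2 CPM, with a mean of 37.4 ± 11.3 CPM. CAB39 was highest in replicate 3, the shallowest library, where STRADA had no count. The paralogs split in opposite ways. STRADB, which also can activate LKB1, had 14, 8 and 8 counts (6.56 ± 0.963 CPM), and CAB39L, the second MO25 gene, had 0 in each library. STRADB therefore had more counts than STRADA in all 3 libraries, and STRADA took 17.6% (95% Wilson interval 6.19 to 41.0), 11.1% (1.99 to 43.5) and 0% (0 to 32.4) of the counts of the pair. For CAB39 and CAB39L the share of CAB39 was 100% in each library, with lower bounds of 93.8%, 92.7% and 93.5%.

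Both catalytic subunits of AMPK were present in every library. PRKAA1 (ENSG00000132356), which encodes alpha 1, had 126, 82 and 41 counts, or 62.3, 56.1 and 37.4 CPM, with a mean of 51.9 ± 13.0 CPM. PRKAA2 (ENSG00000162409), which encodes alpha 2, had 68, 55 and 25 counts, or 33.6, 37.6 and 22.8 CPM, with a mean of 31.3 ± 7.67 CPM. Both were lowest in replicate 3, and PRKAA1 exceeded PRKAA2 in each library. PRKAA1 took 64.9% (58.0 to 71.3), 59.9% (51.5 to 67.7) and 62.1% (50.1 to 72.9) of the counts of the pair. The log2 ratio of counts was 0.73 ± 0.16, and the Wilson intervals of the 3 libraries overlapped.

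Among the beta subunits, which join alpha to gamma and carry the glycogen-binding domain, the counts came from PRKAB1 alone. PRKAB1 (ENSG00000111725) had 30, 31 and 34 counts, or 14.8, 21.2 and 31.0 CPM, with a mean of 22.3 ± 8.15 CPM. Its number of counts was nearly level while the libraries became smaller, so that its CPM was highest in replicate 3. PRKAB2 had 0 counts, and PRKAB1 took 100% of the pair, with lower Wilson bounds of 88.6%, 89.0% and 89.8%.

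The gamma subunits bind AMP, ADP and ATP, and PRKAG1 led them in every library. PRKAG1 (ENSG00000181929) had 121, 83 and 45 counts, or 59.8, 56.8 and 41.0 CPM, with a mean of 52.5 ± 10.1 CPM. PRKAG2 (ENSG00000106617) had 19, 18 and 5 counts, or 9.39, 12.3 and 4.56 CPM, with a mean of 8.75 ± 3.92 CPM. Both were lowest in replicate 3, as the alpha subunits were. PRKAG1 took 86.4% (79.8 to 91.1), 82.2% (73.6 to 88.4) and 90.0% (78.6 to 95.7) of the counts of the pair, and the log2 ratio of counts was 2.68 ± 0.48. The muscle isoform PRKAG3 was looked for and was not among the genes of the deposited table. The smallest p that 3 libraries allow for such a ratio is 0.25 (exact two-sided permutation of signs), so none is given, and since transcript lengths were not used, they are ratios of counts and not of molecules.

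**Figure D1:**
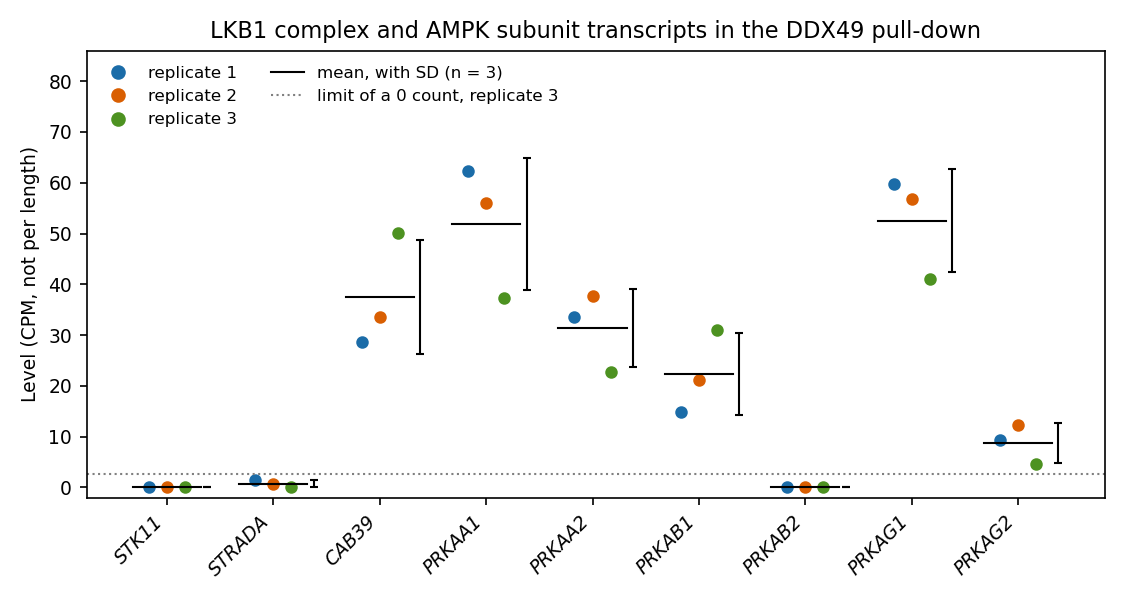
CPM (not per length) of the 9 genes in each library, with the mean as a line and the SD as a bar (n = 3); the dotted line is the 2.74 CPM that a count of 0 allows in replicate 3. STK11 and PRKAB2 sit at 0, and PRKAA1 and PRKAG1 have the highest means, 51.9 and 52.5 CPM.

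**Figure D2:**
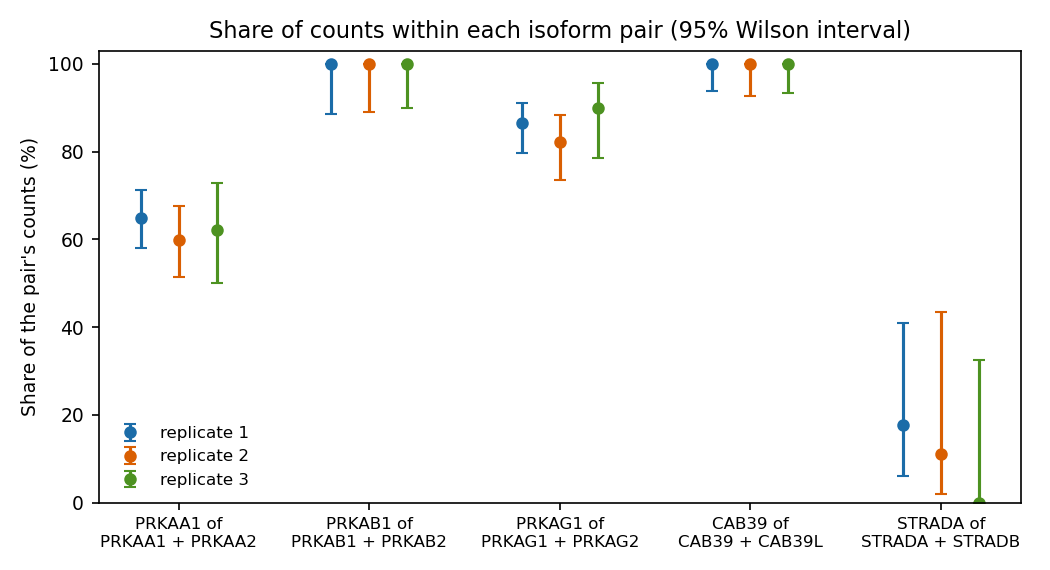
Share of the first gene in the counts of each paralog pair, per library, with 95% Wilson intervals. PRKAA1 lies at 59.9% to 64.9%, PRKAG1 at 82.2% to 90.0%, PRKAB1 and CAB39 at 100%, and STRADA at 0% to 17.6%.

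In order of mean CPM the genes ran PRKAG1, PRKAA1, CAB39, PRKAA2, PRKAB1, PRKAG2, STRADA, then STK11 and PRKAB2 together at 0. Between neighbours in this order the values of the 3 libraries overlapped from PRKAG1 down to PRKAB1, so neighbours among these 5 are not ordered beyond their spread. Genes farther apart were: all values of PRKAG1 lay above those of PRKAA2 and PRKAB1, and all values of PRKAA1 above those of PRKAB1. PRKAB1 lay above PRKAG2, and PRKAG2 above STRADA, without overlap. STRADA overlapped with the 0 of STK11 and PRKAB2 in replicate 3. Without replicate 3, 5 of the 9 genes kept their place, as PRKAA1 passed PRKAG1 and PRKAA2 passed CAB39. Within each library, PRKAA1 lay at percentiles 75.6, 74.2 and 66.5 of the 13247 genes by CPM, PRKAB1 at 47.2, 54.9 and 62.7, and PRKAG2 at 39.6, 44.7 and 31.8. PRKAG2 thus lay below the middle of the table, whose median gene had 16.8 CPM, in every library, and PRKAB1 below it in replicate 1 only, while PRKAA1 lay above it throughout.

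Of the genes described here, CAB39 alone passed the test for a difference between replicates, and the call depended on the settings. When each gene's 3 counts were set against the totals of the libraries by chi-square, adjusted by Benjamini-Hochberg over the 8633 genes that reached 30 counts in sum, 1 of the 6 genes tested here differed between libraries, against 19.6% of all genes tested. That gene was CAB39 (adjusted p = 0.0464 by the chi-square test), and PRKAB1 (0.0544) and PRKAA1 (0.0698) did not pass. PRKAA2 (0.243), PRKAG1 (0.213) and PRKAG2 (0.268) did not pass either, and STRADA, with 4 counts in all, was not tested. The call on CAB39 was lost with a minimum summed count of 10 (0.0504) and with no minimum (0.0595), without replicate 1 (0.194) and without replicate 3 (0.695). PRKAB1 passed with TMM-scaled totals (0.0406), with totals that leave out DDX49 (0.0481) and without replicate 2 (0.0221), and PRKAA1 passed without replicate 2 (0.0304). Of the 6 genes, 4 were lowest in replicate 3 (PRKAA1, PRKAA2, PRKAG1 and PRKAG2) and 2 were highest there (CAB39 and PRKAB1). The coefficient of variation between replicates beyond counting error, from edgeR, ran from 14.6% for PRKAG1 to 29.8% for PRKAG2. The 1 common value fitted over all genes tested was 14.1%. It is not a median of single-gene values, so it does not show whether these genes varied more than others. The labels do not say whether the replicates were separate cultures, and this spread may be technical.

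A count of 0 in all 3 libraries was shared by 746 of the 13247 genes, or 5.63%. The deposited table leaves out some protein-coding genes, and of 16 hepatocyte markers it holds 6. The share is therefore over the genes in it and not over all protein-coding genes. STK11 and PRKAB2 were among them, 2 of the 9 genes described here. STRADA brought the number with a mean below 1 CPM to 3 of 9, where the share over the table was 18.4%. STK11 was chosen for its 0 counts and so is in both numbers by the choice, and no excess over the table can be read from them. STRADA had a mean of 0.342 CPM without replicate 1 and of 1.08 CPM without replicate 3, and in the latter case the number below 1 CPM was 2. The genes at 0 have identical counts, so likeness to STK11 has no further rank. Genes at 0 included some that nearly every cell uses. Of 11 broadly expressed reference genes 2 were at 0 in each library, REEP5 of the endoplasmic reticulum and VPS29 of the retromer, while the other 9 had means of 11.1 to 532 CPM. Of 80 ribosomal protein genes and close paralogs 0 were at 0 in every library, and the median was 416 CPM. What sets the 0 counts of STK11 and PRKAB2 was not tested.

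Around STK11 the neighbouring genes were counted. The table held 10 protein-coding genes as nearest neighbours, 5 on each side, and 9 of them had a mean of at least 1 CPM (8 without replicate 3, which held 5 of the 6 counts of CIRBP). Before STK11, SBNO2 had 134 ± 9.18 CPM, the lipid peroxide reductase GPX4 571 ± 58.6, the RNA polymerase subunit POLR2E 165 ± 24.9, ARHGAP45 59.2 ± 11.7 and the lipid transporter ABCA7 16.3 ± 3.54. After it, the ATP synthase subunit ATP5F1D had 203 ± 20.7 CPM, MIDN 68.4 ± 14.5 and FAM174C 18.8 ± 4.75. The low counts nearest to STK11 were those of CIRBP, the cold-inducible RNA-binding protein, with 1, 0 and 5 counts, and of EFNA2, an ephrin, with 0, 1 and 1. The gap at STK11 was therefore not shared by SBNO2 and ATP5F1D, which flank it at distances of 31509 and 13319 bases.

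The STK11 span overlapped 1 other gene of the reference, CBARP on the opposite strand, by 145 of its 22654 bases, and CBARP was not analysed here. PRKAB2 overlapped 0 genes. Other spans overlap more: all 16503 bases of PRKAG1 lie within DDN-AS1, PRKAB1 shares up to 7220 of its 13668 bases with 2 genes on the opposite strand, PRKAB1-AS1 among them, and PRKAA1 up to 27017 of 38986 bases with 2 non-coding loci. CAB39 overlaps 3 genes, 1 of them protein-coding, by up to 711 of its 108234 bases, and PRKAG2 overlaps 2 by up to 4483 of 320989. The counting of strand is not stated, so reads of such partners could be in the counts of PRKAG1, PRKAB1, PRKAA1, CAB39 and PRKAG2. The nearest neighbour of PRKAB2, the chromatin remodeller CHD1L, starts 276 bases away on the opposite strand and also had 0 counts in each library. Of the 10 neighbours of PRKAB2, CHD1L and NBPF11, a member of a gene family with many near-identical copies, were at 0. BCL9, a further neighbour on the same side, had 90, 69 and 44 counts (43.9 ± 3.57 CPM). Over the table, 21.4% of the 681 genes at 0 with a position overlapped another protein-coding gene, against 24.0% of the 12052 with at least 1 count. With genes of every type the shares were 57.9% and 58.6%. These are overlaps of whole RefSeq spans on either strand, not of exons or of the authors' annotation. They do not show how reads were assigned, and what part overlap has in the 0 counts was not tested.

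**Figure D3:**
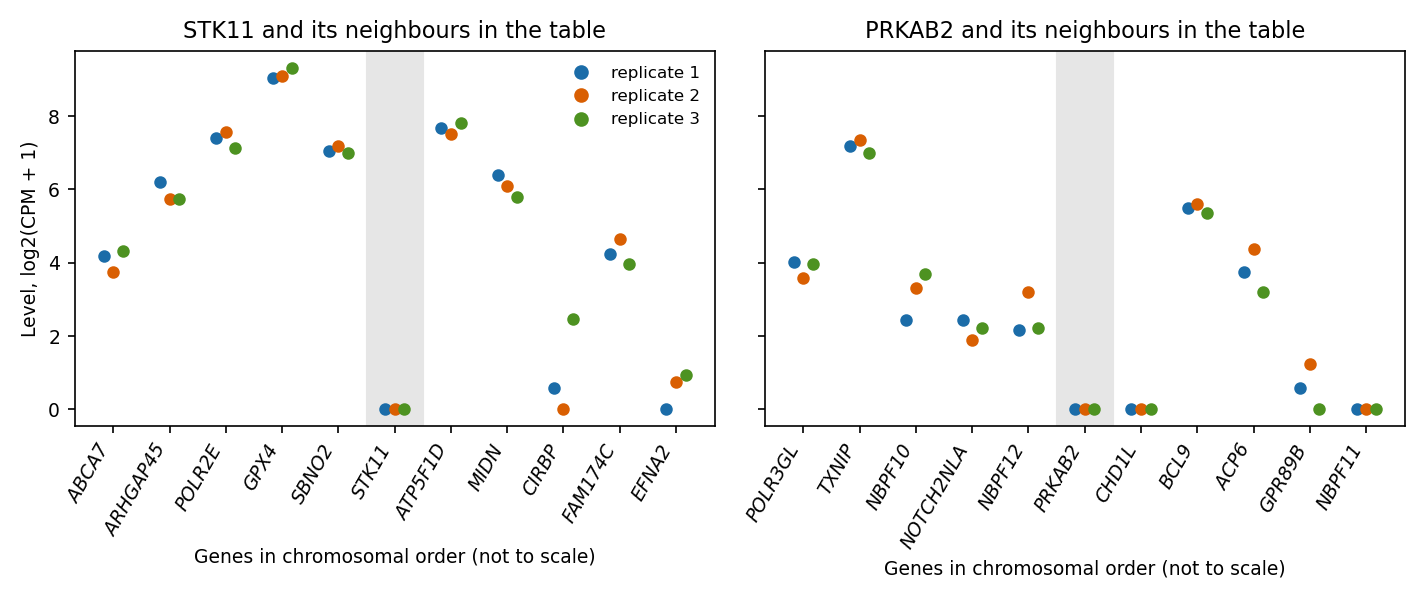
Level as log2(CPM + 1) of STK11, PRKAB2 (grey band) and the 5 nearest protein-coding genes of the table on each side, in chromosomal order, per library. STK11 lies at 0 between SBNO2 and ATP5F1D, which have 134 and 203 CPM, while PRKAB2 lies beside CHD1L, which is also at 0.

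Other kinases and recruiting proteins that activate AMPK were counted. Of the 9 genes listed 0 were at 0 in every library and 0 were below 1 CPM, and their median was 39.8 CPM, against 16.8 for the table. The shares over the table were 5.63% at 0 and 18.4% below 1 CPM. The scaffold AXIN1, which brings LKB1 to AMPK at the lysosome, had 266, 250 and 145 counts (145 ± 22.6 CPM). LAMTOR1, which anchors the Ragulator complex there, had 58.2 ± 7.93 CPM and LAMTOR4 43.8 ± 9.17. The calcium-dependent kinases CAMKK2 (39.8 ± 7.06) and CAMKK1 (35.2 ± 10.7) and the kinase TAK1 (gene MAP3K7, 31.4 ± 3.63), which can phosphorylate AMPK without LKB1, were all present in each library. Of 8 genes listed as negative regulators 7 were in the table and 0 of these were at 0, and the phosphatase catalytic subunits PPP2CA (52.2 ± 14.5) and PPP2CB (46.1 ± 12.8) and the phosphatase PPM1A (36.1 ± 8.27) were highest.

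The AMPK-related kinases, which LKB1 also activates, were present. Of 12 genes 0 were at 0 and 0 below 1 CPM, with a median of 58.0 CPM. The salt-inducible kinases SIK1 and SIK2 led them, while SIK3 had 65.5 CPM on average. SIK1 had 897, 623 and 441 counts (424 ± 20.7 CPM), SIK2 527, 311 and 199 (218 ± 39.8) and the microtubule affinity kinase MARK2 193, 131 and 76 (84.8 ± 13.7). The neuronal kinases BRSK1 (3.40 ± 1.84) and BRSK2 (1.09 ± 0.244) were lowest. Of the 10 that were tested 3 differed between libraries, against 19.6% of all genes tested.

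Substrates of AMPK in lipid and glucose metabolism had a median of 74.4 CPM over 13 genes. The lipogenic transcription factor SREBF1 had 667, 528 and 487 counts (378 ± 59.1 CPM), the acetyl-CoA carboxylase ACACA 424, 371 and 249 (230.1 ± 22.3), and the glycogen synthase GYS1 345, 288 and 216 (188 ± 15.3). The liver glycogen synthase GYS2 was at 0, and the hormone-sensitive lipase LIPE (0.330 ± 0.571) and the glucose-responsive transcription factor MLXIPL (0.824 ± 1.43) were below 1 CPM, with all of their counts in replicate 1. Of 18 substrates in growth control, autophagy and mitochondria 0 were at 0, against 5.63% of the table. Their median was 64.3 CPM, and the autophagy kinase ULK1 (253 ± 21.3), the coactivator CRTC3 (203 ± 17.5) and the mTORC1 subunit RPTOR (163 ± 22.9) were highest.

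Target genes of the CRTC coactivators and CREB, which the salt-inducible kinases restrain, had a median of 22.5 CPM over the 15 found in the table. CPS1, which makes carbamoyl phosphate for urea synthesis, had 3566, 2544 and 1836 counts (1726 ± 45.9 CPM), followed by SIK1 and by the phosphatase DUSP1 (288 ± 5.33). PPARGC1A, the coactivator of mitochondrial biogenesis, was at 0, and the gluconeogenic enzyme PCK1 (0.950 ± 0.825) and the growth factor AREG (0.760 ± 0.697) were below 1 CPM. Kinases that act on LKB1 or AMPK from other pathways had a median of 93.8 CPM over 9 genes, with the protein kinase A subunit PRKACA (241 ± 33.3), AKT1 (132 ± 33.3) and AKT2 (130 ± 17.7) highest. Levels of different genes are in CPM and not per length, so these medians describe counts.

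**Figure D4:**
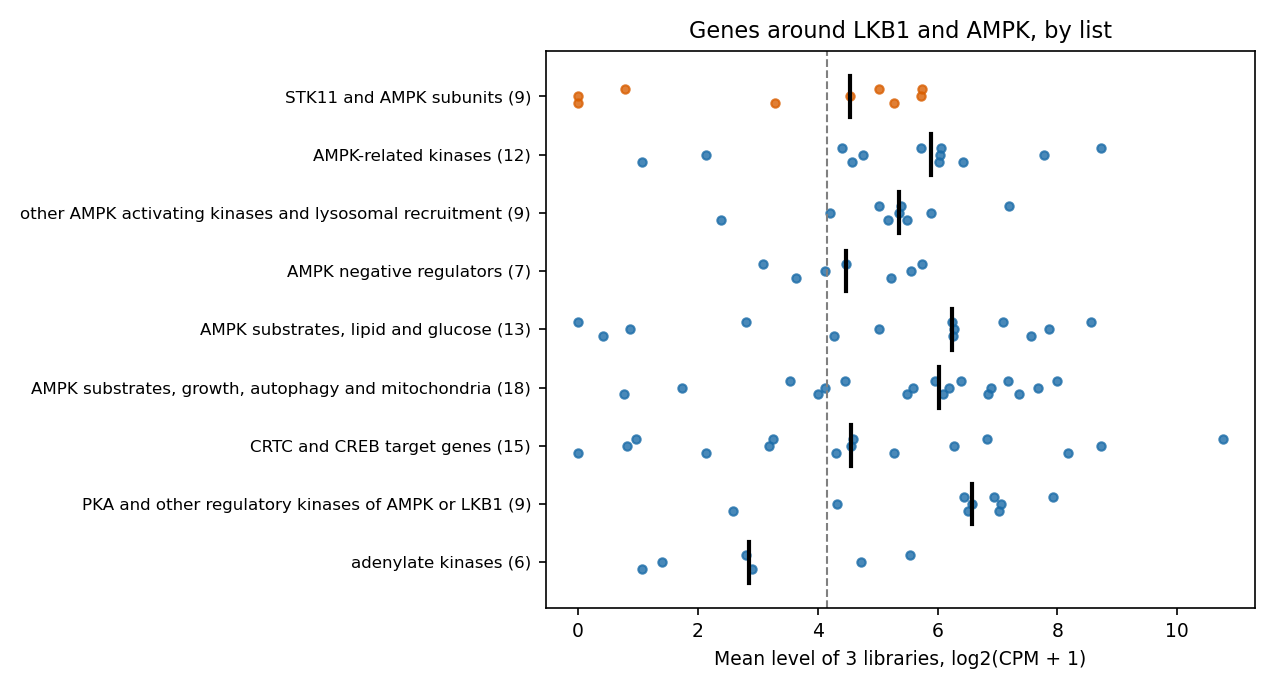
Mean level of 3 libraries as log2(CPM + 1) for each gene of 9 lists, with the list median as a black bar, the number of genes in the table in brackets, and the median of all 13247 genes (16.8 CPM) as a dashed line. The AMPK-related kinases have a median of 58.0 CPM and 0 genes at 0, where 5.63% of the table is at 0. STK11, which was chosen for its 0 counts, and PRKAB2 lie at 0 in the top row.

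The libraries held 2023133, 1461858 and 1096586 counts, so 1 count equalled 0.494, 0.684 and 0.912 CPM, and intervals and limits cover counting error only. Of 16 hepatocyte markers 6 were in the table, and 4 of these were below 1 CPM, CPS1 being the exception with CEBPA (1.72 ± 0.317). The simple epithelial keratins KRT8 (6409 ± 619.5), KRT7 (5813 ± 143) and KRT18 (2608 ± 127) were high, while KRT19 and CDH1 were at 0, and the labelled liver identity thus rested on few markers here. Of the fibroblast and stellate markers 7 were in the table, led by VIM (1104 ± 52.5), COL3A1 (42.5 ± 9.59) and PDGFRB (31.1 ± 8.90), and COL1A1 was at 0. Of the endothelial markers ENG (154 ± 7.58) and CDH5 (3.07 ± 3.34) were in the table, and of the immune markers CD14, which was at 0.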

How the data were processed

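The deposited table gives, per the file headers, the authors' raw counts of each gene in 3 RIP-seq libraries. The submitters' processing notes name CASAVA 1.4 and hg38. The aligner, the gene assignment and the handling of strand were not given in the sources used here. A further 3 per-sample columns that the header calls normalised were not used.

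Counts were divided by library totals to give CPM. Positions, promoters and current symbols came from RefSeq (GRCh38.p14), in which 12819 genes (96.8%) were found by gene identifier. Levels per length had been planned, but lengths of transcripts or proteins were not used here, so CPM took their place. The chi-square test used a summed count of at least 30 and a threshold of 0.05, and was tested on simulated data. Variation between replicates was estimated in edgeR with an intercept as sole term and TMM factors of 1.02, 0.996 and 0.983.

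The genes and the 16 lists were chosen with earlier results of these data known. Named are the 9 genes, and of each list the 3 highest and those at 0, and 5 neighbours of STK11 on each side. Further genes, among them the neighbours of PRKAB2, the ribosomal protein genes and those below 1 CPM, and the comparison of overlapping spans were chosen after values were seen. Some genes that this rule would name are not reported here. Alternatives were other totals and size factors (edgeR, DESeq2), count minimums, a pseudocount of 1 CPM, and leaving out each replicate. Python 3.11.15, numpy 2.4.6, scipy 1.17.1, pandas 2.3.3, matplotlib 3.10.9, R 4.3.3, edgeR 4.0.16 and DESeq2 1.42.0 were used.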

Additional observations from a re-analysis of the deposited data

How the results depend on the processing

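Totals without DDX49, TMM-scaled totals and DESeq2 size factors left the order of the 9 genes and the number below 1 CPM (3) as they were. They cannot change a ratio of 2 genes within a library, and a pseudocount of 1 CPM gave log2 ratios of 0.71 for PRKAA1 over PRKAA2 and 2.53 for PRKAG1 over PRKAG2. Leaving out 1 replicate, these ratios ran from 0.64 to 0.80 and from 2.44 to 2.92, the genes that kept their place in the order from 5 to 9, the genes at 0 from 1084 to 1200, and the genes that differed between libraries from 474 to 1322. Fewer libraries make 0 counts more frequent by construction. The limit over libraries rose to between 0.861 and 1.17 CPM, and the neighbours of STK11 at 1 CPM or more numbered 8 to 9; both of these checks were chosen after seeing the data. The test of single genes changed side in 8 cases, given beside the test. The alternatives that use length were not run, as no lengths were at hand. No paired analysis was possible because there is 1 group. With 0, 0 and 4 counts, the levels of STK11, PRKAB2 and STRADA are not resolved at this depth. The limits given cover counting error only. They do not bound the RNA level if reads were lost in another way, which was not tested.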

Other observations

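The authors' annotation places 77 genes of the table in the AMPK signalling pathway, a set noticed after the data were seen. Of these, 6 were at 0 in every library: STK11, PRKAB2, CAB39L, the glycogen synthase GYS2, the growth factor IGF1 and PPARGC1A. Without the 9 genes for LKB1, its partners and the AMPK subunits, 68 were in the pathway, and their median was 31.5 CPM. Of these 68, 4 (5.88%) were at 0, against 5.63% of the table. The 68 still include genes described above in other lists, CAB39L, GYS2 and PPARGC1A among them. The elongation factor EEF2, which a kinase downstream of AMPK inhibits, was highest with 13110, 9152 and 6157 counts (6118 ± 449.8 CPM). It was followed by the membrane-bound transcription factor CREB3L2 (453 ± 32.2) and the adiponectin receptor ADIPOR1 (386 ± 57.0), which signals to AMPK.

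Some adenylate kinases turn ADP into ATP and AMP and so help to set the signal that AMPK reads. Of the 9 genes listed 6 were in the table and 0 of them were at 0, against 5.63% of the table. The mitochondrial AK3 had 96, 59 and 53 counts (45.4 ± 4.37 CPM), AK4 61, 42 and 19 (25.4 ± 7.03), and the cytosolic AK1 19, 12 and 2 (6.47 ± 4.07). AK1 and AK4 were lowest in replicate 3, and neither passed the chi-square test between libraries (adjusted p = 0.148 and 0.2195).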
